A study of Mus musculus with 16 samples.

Results

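The genes described here are 10 members of fibroblast growth factor (FGF) signalling, chosen by name: the ligands Fgf4, Fgf8 and Fgf15, the receptors Fgfr1 and Fgfr2, the feedback inhibitors Spry2, Spry4 and Dusp6, and the transcription factors Etv4 and Etv5. Every array probe whose platform annotation gives one of these symbols was taken, which made 15 probes of 25697 and 10 genes of the 16593 that have a probe. A probe counted as detected on an array when its detection p-value was below 0.01. Of the 15 probes, 9 were detected in both arrays of at least 1 group, and they left 8 of the 10 genes for testing, among 7505 genes in all. Fgfr1, with 2 probes, and Spry4, with 1 probe, were detected on none of the 16 arrays.

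The series asked how mouse embryonic stem cells without the transcriptional repressor REST differ from control cells as they differentiate, with the cardiac lineage named in its title. The knockout groups were REST -/- cells at day 0, undifferentiated and grown on gelatin without feeder cells in serum medium with leukemia inhibitory factor (LIF), and REST -/- embryoid bodies at days 3, 6 and 9. Embryoid bodies are cell aggregates, here started in hanging drops in the same medium without LIF. The control groups were REST +/+ cells and embryoid bodies of the same 4 days, and each of the 8 groups had 2 arrays. The labels give no other allele or agent, and they state neither how many clones nor how many cultures stand behind the arrays of a group. P-values thus cover only how far arrays of 1 group lie apart, and that spread could be technical.

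Between 6300 and 9045 probes were detected per array, and Pearson's r over genes between both arrays of a group lay at 0.982 to 0.992. The probe for Rest itself was detected on no array, with intensities of 1.26 to 32.0 in knockout samples and 4.00 to 44.0 in control samples, so it does not check the genotype labels. As a marker check, 9 neuronal genes known as REST targets had summed normalized intensities of 4694 to 4941 in knockout cells and 1522 to 1631 in control cells at day 0. That list was chosen with earlier results of these data known, so it is not an independent check of the labels. All 9 pluripotency markers that could be tested were detected at day 0 in both genotypes, and 8 cardiac and mesenchyme markers summed to 70850 to 71120 in knockout and 72520 to 73470 in control bodies at day 9.

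FGF ligands bind receptor tyrosine kinases on the cell surface together with heparan sulfate and switch on the RAS and ERK kinase cascade. The cascade induces its own inhibitors, the Sprouty proteins and dual-specificity phosphatases, and ETS transcription factors of the PEA3 group, so that transcripts of these genes are widely used as a readout of FGF signalling. In mouse embryonic stem cells FGF4 acts on the cells that make it and opens the way to differentiation, and in the gastrulating mouse embryo FGF8 from the primitive streak is needed for cells to leave the streak.

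RefSeq promoter sequences (mouse build GRCm38.p6) were searched for 5 of the 10 members. None was at hand for Fgf8, Fgf15, Fgfr1 or Etv4, and Spry4 was left out of the search. Of those 5, the promoters of Fgf4, Spry2 and Etv5, which fell during differentiation, and of Dusp6, which peaked at day 3, are shown, and the 250 bases before the annotated start are given on the gene's strand. Capitals mark CCAAT or its reverse complement, and in the Fgf4 promoter also overlapping copies of TATATA. Fgf4 lies at chr7:144861136-144861385, + strand. Spry2 lies at chr14:105896820-105897069, - strand. Dusp6 lies at chr10:99262981-99263230, + strand. The upstream of the 2 annotated Etv5 starts lies at chr16:22439571-22439820, - strand.
Fgf4: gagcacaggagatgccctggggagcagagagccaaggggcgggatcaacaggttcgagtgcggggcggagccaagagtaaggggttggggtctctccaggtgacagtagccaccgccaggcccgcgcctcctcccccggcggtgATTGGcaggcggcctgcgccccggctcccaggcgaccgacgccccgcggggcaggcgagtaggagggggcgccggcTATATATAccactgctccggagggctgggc
Spry2: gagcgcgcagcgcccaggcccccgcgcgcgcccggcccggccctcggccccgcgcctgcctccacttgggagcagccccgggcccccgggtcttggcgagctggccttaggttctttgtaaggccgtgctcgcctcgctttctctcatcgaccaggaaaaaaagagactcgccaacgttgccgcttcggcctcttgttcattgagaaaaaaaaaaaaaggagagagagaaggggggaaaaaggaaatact
Dusp6: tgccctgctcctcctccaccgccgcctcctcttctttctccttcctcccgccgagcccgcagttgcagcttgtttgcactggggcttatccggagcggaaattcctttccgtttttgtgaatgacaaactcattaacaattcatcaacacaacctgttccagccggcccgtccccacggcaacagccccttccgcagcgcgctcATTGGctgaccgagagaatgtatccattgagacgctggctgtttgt
Etv5: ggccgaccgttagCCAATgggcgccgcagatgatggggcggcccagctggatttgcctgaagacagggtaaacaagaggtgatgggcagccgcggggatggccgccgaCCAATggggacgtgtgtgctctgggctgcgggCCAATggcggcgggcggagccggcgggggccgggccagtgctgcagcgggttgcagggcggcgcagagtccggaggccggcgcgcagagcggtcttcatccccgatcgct

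Searched on both strands, CCAAT occurred 1 time in the Fgf4 window, 1 time in the Dusp6 window and 3 times in the Etv5 window, and it was not in the Spry2 window. Of all 32851 promoters of this length, 33.9% held CCAAT. The Fgf4 window held TATATA 30 and 28 bases before the start, as 5.25% of all promoters did anywhere in theirs. These 2 motifs were chosen after the sequences had been read. None of CCGGAAG (an ETS core, in 6.91% of all promoters), CTTTGAT (TCF/LEF, 3.21%), ATGCAAA (octamer, 4.13%), CAGCACC and GGACAG (parts of the REST element, 5.73% and 18.7%) was in any of the 6 member windows, those of Fgfr2 and of the second Etv5 start included. Guanine and cytosine made up 71.2% of the Fgf4 window, 62.4% of the Spry2 window, 56.4% of the Dusp6 window and 71.2% of this Etv5 window, against a median of 52.4% over all promoters. Fgf4 and Fgf15 are neighbouring protein-coding genes on the chromosome.

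Most of the movement in these genes came with time and not with genotype. Fgf8 and Dusp6 rose at day 3, and both had come down again by day 6. Fgf4 had fallen below detection by day 3, and Spry2, Etv4 and Etv5 had fallen by day 6. These changes were read from a linear model over all 16 arrays (limma, on normalized log2 intensities), with adjusted p-values from the Benjamini-Hochberg method over the 7505 genes and a threshold of 0.05. Fold changes are on the log2(value + 16) scale, which understates the change of dim genes, and "at least" marks a bound for a gene that no array of the lower group detected.

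In knockout embryoid bodies at day 3, 2 of the 8 tested members had risen and 2 had fallen against day 0, where 24.6% of all tested genes rose and 21.6% fell. The control counts at day 3 were also 2 risen and 2 fallen, where 27.2% and 24.4% of all genes did. By day 6, 1 member was higher and 4 were lower in knockout bodies (31.7% and 29.9% of all genes), and 0 were higher and 4 lower in control bodies (32.4% and 30.6%). By day 9, 0 were higher and 5 lower in knockout bodies (35.4% and 34.2% of all genes), and 1 was higher and 4 were lower in control bodies (35.2% and 34%). With 8 genes, the rises lay near or below these shares, and 4 or 5 falls of 8 at days 6 and 9 stood beside about 30% to 34.2% over all genes. The median change of the 8 members at day 9 was -1.29 in knockout and -0.93 in control bodies, against 0.01 over all genes in both. All 3 later days share the day 0 arrays of their genotype. Fgf4 passed the detection filter only through day 0, and Etv4 only through days 0 and 3. Etv5 passed only through the knockout groups of days 0 and 3, and Fgf8 only through day 3. The filter favoured a later fall of Fgf4, Etv4 and Etv5, and a day 3 rise of Fgf8. The counts and the median changes are thus not read as a result about the members.

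**Figure D1:**
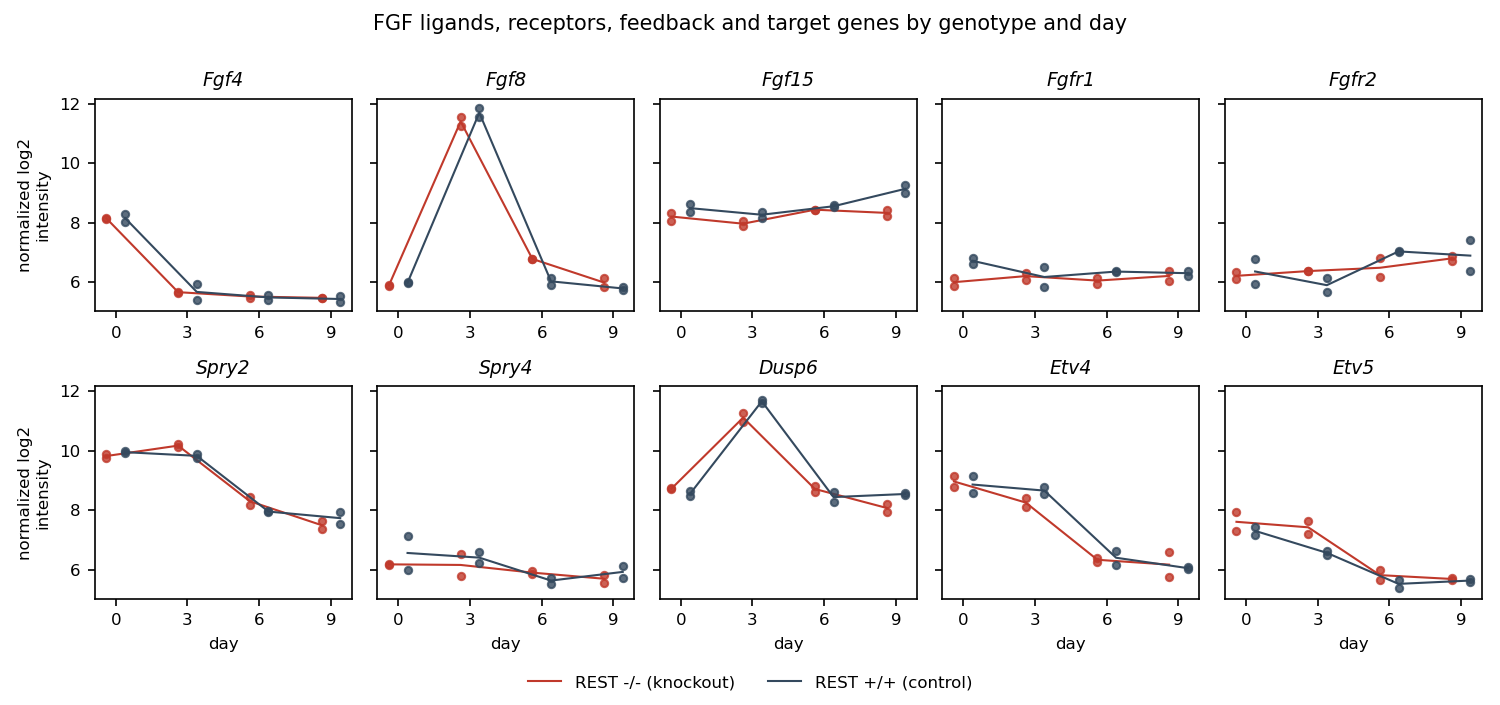
Normalized log2 intensity of the 10 members (vertical axis) by day (horizontal axis), with knockout in red left of control in dark grey; each point is 1 array and lines join the means of 2 arrays. Fgf8 and Dusp6 peak at day 3 in both genotypes, at 11.24 to 11.57 in knockout and 11.55 to 11.85 in control bodies for Fgf8, while Fgf4, Spry2, Etv4 and Etv5 end lower than they began.

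Among the ligands, Fgf8 changed most. On the normalized log2 scale its probe read 5.88 and 5.89 at day 0, 11.57 and 11.24 at day 3, 6.76 and 6.79 at day 6, and 6.12 and 5.84 at day 9 in knockout samples. In control samples it read 5.96 and 5.99 at day 0, 11.55 and 11.85 at day 3, 5.89 and 6.15 at day 6, and 5.82 and 5.74 at day 9. All 4 arrays of day 3 stood far above every other array, and the genotypes overlapped there. The rise at day 3 was 5.52 ± 0.16 (SE) in knockout and 5.72 ± 0.16 in control bodies, at least 22.8-fold and at least 22.0-fold, with limma adjusted p of 7.3e-12 and 5.46e-12. Apart from day 3, Fgf8 was detected on 1 array, of knockout day 6. It thus passed the detection filter only through day 3, which favoured a rise on that day.

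The knockout arrays of day 6 read 6.76 and 6.79 for Fgf8, against 5.89 and 6.15 in control arrays. The fitted difference from knockout day 0, where no array detected Fgf8, was 0.89 ± 0.16 (limma adjusted p = 0.000181). It gives no bound above 1-fold, since these readings are near the detection limit themselves, while the control arrays of day 6 differed from control day 0 by 0.05 ± 0.16 (adjusted p = 0.812).

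Fgf4, the ligand that embryonic stem cells make for themselves, was detected at day 0 only. Its levels were 8.16 and 8.13 at day 0, 5.67 and 5.64 at day 3, 5.57 and 5.45 at day 6, and 5.47 and 5.46 at day 9 in knockout samples. They were 8.02 and 8.29 at day 0, 5.41 and 5.92 at day 3, 5.56 and 5.40 at day 6, and 5.34 and 5.51 at day 9 in control samples. The arrays of the genotypes lay within the same range on every day. Against day 0 Fgf4 had dropped at least 2.60-fold in knockout and at least 2.52-fold in control bodies at day 3, and at least 3.05-fold and 3.09-fold at day 9. The limma adjusted p was at most 2.52e-08 at each later day.

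Fgf15, known in the mouse from the developing neural tube and from the ileum, where it restrains bile acid synthesis in the liver, was detected on all 16 arrays. It read 8.07 and 8.34 at day 0, 7.88 and 8.04 at day 3, 8.43 and 8.44 at day 6, and 8.22 and 8.43 at day 9 in knockout samples. The control readings were 8.62 and 8.36 at day 0, 8.16 and 8.36 at day 3, 8.51 and 8.59 at day 6, and 9.27 and 9.01 at day 9. Knockout arrays lay between 7.88 and 8.44, and control arrays of days 0 to 6 between 8.16 and 8.62. The control arrays of day 9 were the highest of all. Control bodies rose by 0.65 ± 0.16 at day 9 against day 0 (limma adjusted p = 0.00171), and knockout bodies differed by 0.12 ± 0.16 (adjusted p = 0.499). With median centring in place of quantile normalization, which moved the median of all genes at day 6 by 0.24 in knockout and 0.31 in control bodies, Fgf15 was also called higher at day 6, by 0.54 and 0.48.

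The receptors gave little signal. Fgfr1, the main FGF receptor of the epiblast, had intensities of 20.4 to 81.4 for its brighter probe and -52.0 to -14.6 for the other, and the lowest detection p on any array was 0.0113. Its brighter probe read 5.86 and 6.13 at day 0, 6.31 and 6.08 at day 3, 6.15 and 5.95 at day 6, and 6.37 and 6.04 at day 9 in knockout samples. In control samples it read 6.82 and 6.61 at day 0, 6.51 and 5.83 at day 3, 6.37 and 6.33 at day 6, and 6.38 and 6.22 at day 9. These values hold no more than that Fgfr1 was not well above background on any array. When every probe was kept without a filter (16593 genes), the knockout minus control difference at day 0 was -0.72 ± 0.20 with a limma adjusted p of 0.115.

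Fgfr2, a receptor of extraembryonic and epithelial tissues, was detected by 1 of its 3 probes, on 6 arrays. That probe read 6.33 and 6.09 at day 0, 6.35 and 6.38 at day 3, 6.79 and 6.16 at day 6, and 6.87 and 6.72 at day 9 in knockout samples. Its control readings were 6.77 and 5.93 at day 0, 6.12 and 5.66 at day 3, 7.00 and 7.05 at day 6, and 7.41 and 6.36 at day 9. Detection was confined to days 6 and 9, on 3 knockout and 3 control arrays, and the SD between the arrays of a group reached 0.74 log2 units. No change of Fgfr2 passed the threshold, with 0.68 ± 0.32 at day 6 in control bodies (limma adjusted p = 0.0748) and 0.59 ± 0.32 at day 9 in knockout bodies (adjusted p = 0.11). The control change at day 6 passed with median centring (0.91, adjusted p = 0.0145). The control changes also passed when control array 1 of day 0 was left out, at 1.10 for day 6 (adjusted p = 0.0157) and 0.95 for day 9 (adjusted p = 0.0273), and at 1.06 for day 9 without control array 2 of that day (adjusted p = 0.0104).

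Among the feedback inhibitors chosen as members, Dusp6, a cytoplasmic phosphatase that inactivates ERK, was the gene that rose. Its brightest probe read 8.72 and 8.73 at day 0, 11.26 and 10.97 at day 3, 8.63 and 8.80 at day 6, and 8.20 and 7.95 at day 9 in knockout samples. In control samples the readings were 8.64 and 8.46 at day 0, 11.72 and 11.61 at day 3, 8.27 and 8.61 at day 6, and 8.50 and 8.59 at day 9. Every array of day 3 stood above every other array, and at day 3 both control arrays lay above both knockout arrays. The rise at day 3 was 2.39 ± 0.16 in knockout and 3.11 ± 0.16 in control bodies (limma adjusted p = 2.43e-08 and 1.18e-09). Knockout bodies at day 9 were 0.65 ± 0.16 lower than knockout cells at day 0 (adjusted p = 0.00191), and control bodies differed from control cells by -0.01 ± 0.16 (adjusted p = 0.97).

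Dusp6 had 3 probes, and the second rose at day 3 as well, by 2.57 in knockout and 2.72 in control bodies. With both detected probes tested side by side (10241 probes), the second was also lower at day 6 in control bodies (-0.53 ± 0.21, limma adjusted p = 0.0396), where the brightest was not (-0.11 ± 0.16). The third probe was detected on no array, yet without a detection filter it too was higher at day 3, by 0.54 in knockout bodies (limma adjusted p = 0.0189) and 0.80 in control bodies (adjusted p = 0.00123).

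**Figure D2:**
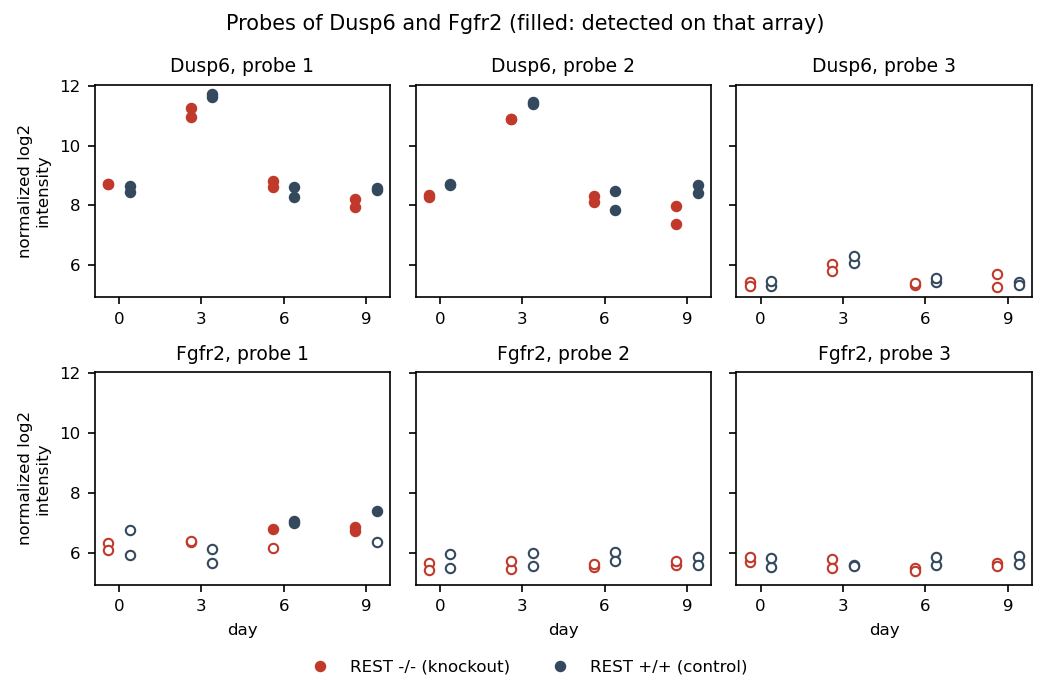
Normalized log2 intensity of the 3 probes each of Dusp6 (upper row) and Fgfr2 (lower row) by day, 1 point per array, knockout in red left of control in dark grey, filled where that array detected the probe. Dusp6 probes 1 and 2 lie between 10.88 and 11.72 at day 3 in both genotypes, whereas Fgfr2 is detected by its probe 1 alone.

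Spry2, an inhibitor of receptor tyrosine kinase signalling, was detected on all 16 arrays. Its knockout readings were 9.89 and 9.76 at day 0, 10.24 and 10.12 at day 3, 8.43 and 8.17 at day 6, and 7.63 and 7.36 at day 9. The control arrays read 9.92 and 9.99 at day 0, 9.89 and 9.77 at day 3, 7.92 and 7.98 at day 6, and 7.95 and 7.52 at day 9. Spry2 was thus high through day 3 and low afterwards in both genotypes. Against day 0 it changed by -1.52 ± 0.16 at day 6 in knockout bodies (limma adjusted p = 1.12e-06), and it had fallen in control bodies too that day (adjusted p = 5.75e-08). At day 9 the changes were -2.33 ± 0.16 in knockout and -2.22 ± 0.16 in control bodies (adjusted p = 8.61e-09 and 1.42e-08). At day 3 knockout bodies were 0.35 ± 0.16 above day 0 (adjusted p = 0.0881), which passed with median centring (0.56, adjusted p = 0.0122) and without background correction (0.32, adjusted p = 0.0477).

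Spry4, a second Sprouty inhibitor, was not well above background on any array. Its probe read 6.19 and 6.16 at day 0, 5.79 and 6.52 at day 3, 5.85 and 5.94 at day 6, and 5.83 and 5.56 at day 9 in knockout samples. In control samples it read 6.00 and 7.12 at day 0, 6.21 and 6.60 at day 3, 5.73 and 5.53 at day 6, and 6.12 and 5.72 at day 9. The highest reading came from control array 2 of day 0, and the lowest detection p lay just above the limit. Without a detection filter the control change at day 6 was -0.93 ± 0.30 (limma adjusted p = 0.0262, 16593 genes), and no other Spry4 comparison passed.

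The transcription factors Etv4 and Etv5, whose transcripts follow FGF signalling in several vertebrate tissues, both fell. Etv4 read 8.79 and 9.14 at day 0, 8.43 and 8.09 at day 3, 6.40 and 6.27 at day 6, and 6.58 and 5.75 at day 9 in knockout samples. In control samples Etv4 read 8.57 and 9.16 at day 0, 8.78 and 8.55 at day 3, 6.16 and 6.64 at day 6, and 6.09 and 6.01 at day 9. All arrays of days 0 and 3 lay above all arrays of days 6 and 9. By day 9 Etv4 had fallen by 2.80 ± 0.26 in knockout bodies and at least 5.05-fold in control bodies, and the limma adjusted p at days 6 and 9 was at most 1.1e-06. In knockout bodies Etv4 had already fallen by 0.71 ± 0.26 at day 3 (adjusted p = 0.0366), where control bodies differed from day 0 by -0.20 ± 0.26 (adjusted p = 0.544). The early fall did not pass without knockout array 2 of day 0 (adjusted p = 0.211), without knockout array 2 of day 3 (0.206), with median centring (0.0702), without a detection filter (0.0627) or in the authors' normalized table (0.171).

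Etv5 read 7.29 and 7.93 at day 0, 7.21 and 7.64 at day 3, 5.98 and 5.65 at day 6, and 5.64 and 5.73 at day 9 in knockout samples. Its control readings were 7.16 and 7.45 at day 0, 6.49 and 6.64 at day 3, 5.66 and 5.38 at day 6, and 5.58 and 5.68 at day 9. It was detected on the 4 knockout arrays of days 0 and 3 and on 1 control array, of day 0. The levels of days 6 and 9 were below detection in both genotypes, at least 1.93-fold lower at day 6 in knockout and at least 1.68-fold lower in control bodies (limma adjusted p = 3.2e-06 and 3.51e-06). At day 3 control bodies had already fallen, at least 1.40-fold (-0.74 ± 0.21, adjusted p = 0.00872), while knockout bodies differed from day 0 by -0.18 ± 0.21 (adjusted p = 0.505). That control fall did not pass without control array 2 of day 0 (adjusted p = 0.074), without control array 1 of day 3 (0.0598) or in the authors' normalized table (0.0967).

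**Figure D3:**
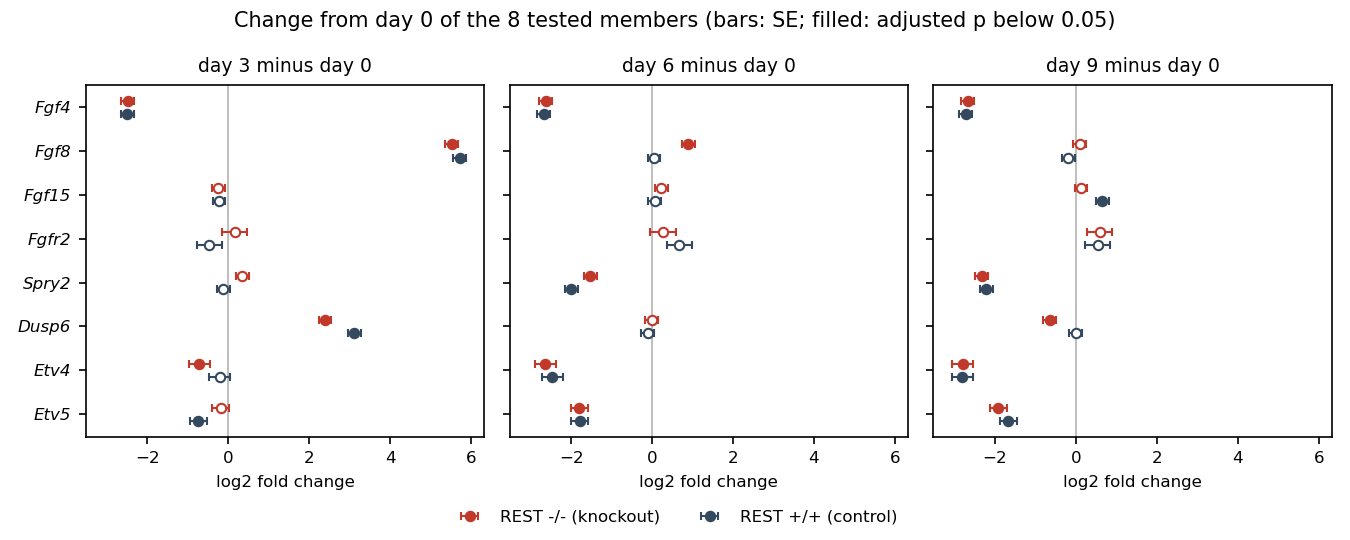
Log2 fold change from day 0 of the 8 tested members (rows) at days 3, 6 and 9, with bars for the SE, knockout in red above control in dark grey, filled where the adjusted p is below 0.05. At day 3 Fgf8 changes by 5.52 in knockout and 5.72 in control and Dusp6 by 2.39 and 3.11, and by day 9 Fgf4, Spry2, Etv4 and Etv5 are lower in both genotypes.

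Between the genotypes few members passed the threshold, and each at a single day. Etv5 was higher in knockout bodies at day 3, Fgf8 was higher in knockout bodies at day 6, and Fgf15 was lower in knockout bodies at day 9. Passing at 1 day does not make a difference particular to that day, and 0 of the 8 members differed in their change from day 0. Without passing, Etv5 differed by 0.31 at day 0 and 0.29 at day 6, and Fgf15 by -0.28 and -0.30 at days 0 and 3. Fgf8 had the opposite sign at day 3 (-0.29). At day 0, 0 of the 8 members passed in limma, and 0 had an unadjusted p under 0.05, where 1.41% of all tested genes were higher and 0.773% lower in knockout cells. At day 3, 1 member was higher and 0 were lower (3.94% and 2.85% of all genes). At day 6, 1 was higher and 0 were lower (1.43% and 0.32% of all genes). At day 9, 0 were higher and 1 was lower (2.69% and 2.43% of all genes). The median knockout minus control difference of the 8 members ranged from -0.15 at day 3 to 0.15 at day 6, against 0.00 over all genes.

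**Figure D4:**
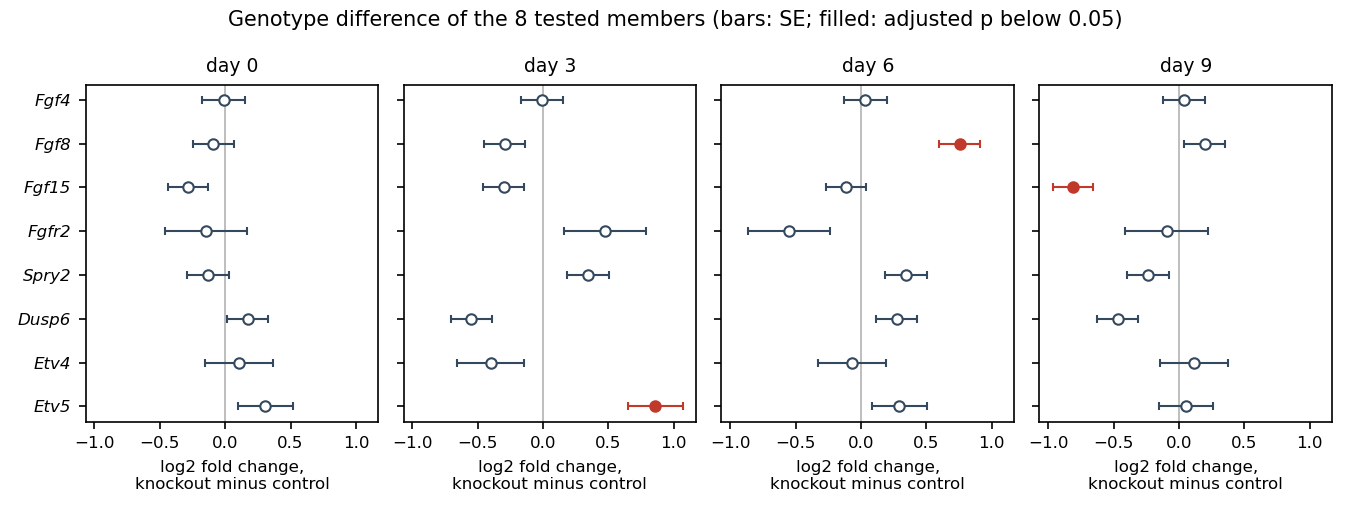
Knockout minus control log2 difference (horizontal axis) of the 8 tested members (rows) at each day, with bars for the SE and filled red points where the adjusted p is below 0.05. The 3 filled points are Etv5 at day 3 (0.86), Fgf8 at day 6 (0.76) and Fgf15 at day 9 (-0.81), and Dusp6 lies at -0.55 at day 3.

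At day 3 Etv5 read 7.21 and 7.64 in knockout bodies, against 6.49 and 6.64 in control bodies, in which neither array detected it. The difference was 0.86 ± 0.21 (SE), at least 1.52-fold, with a limma adjusted p of 0.0211. Etv5 passed the detection filter only through knockout groups, those of days 0 and 3, which favoured a call of higher in knockout. Pluripotency markers, 9 of 10 tested, summed to 23740 to 25690 in knockout and 15080 to 16810 in control bodies that day, with 3 markers called higher and 1 lower. Primed epiblast markers, 6 of 7 tested, summed to 19980 to 22080 and 11370 to 15480, with 2 called higher and 0 lower. Such sums are carried by the brightest markers. Their part in the Etv5 difference was not tested, and in bulk samples fewer cells of a type and less RNA per cell cannot be told apart. The call was lost without knockout array 2 (adjusted p = 0.246), without control array 1 (0.181) or control array 2 (0.0555), without background correction (0.0593), in the authors' normalized table (0.212) and with these groups alone in the fit (0.0569).

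Dusp6 at day 3 read 11.26 and 10.97 in knockout and 11.72 and 11.61 in control bodies, a difference of -0.55 ± 0.16 that lay at the threshold (limma adjusted p = 0.0501). Its second probe differed by -0.54 ± 0.21 and did not pass (limma adjusted p = 0.171 over 10241 probes). At day 0 that probe differed by -0.39 and the brightest by 0.17. The difference passed without background correction (adjusted p = 0.0182) and with probes required in 2 groups (0.0482). Primitive streak markers, 8 of 10 tested, summed to 6469 to 10200 in knockout and 21280 to 24370 in control bodies, with Tbx6 not detected in knockout and every tested marker detected in control. Fgf8, a streak gene itself, differed by -0.29 ± 0.16 that day (adjusted p = 0.345). What the streak markers contribute to the Dusp6 values was not tested.

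Fgf8 at day 6 differed by 0.76 ± 0.16, at least 1.16-fold, with a limma adjusted p of 0.0195. It was detected on 1 of 2 knockout arrays and on neither control array. Streak markers that day summed to 814 to 885 in knockout and 568 to 813 in control bodies, and Mixl1, Eomes, Mesp1, Gsc and Tbx6 were not detected in either. The call was lost without knockout array 1 (adjusted p = 0.126) or array 2 (0.143), without control array 1 (0.205), without background correction (0.072) and with these groups alone in the fit (0.13).

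Fgf15 at day 9 read 8.22 and 8.43 in knockout and 9.27 and 9.01 in control bodies. The arrays did not overlap, and the difference was -0.81 ± 0.16 (limma adjusted p = 0.00508). Primitive and visceral endoderm markers, 6 of 11 tested, summed to 23070 to 24510 in knockout and 36620 to 38350 in control bodies. Of the 6, 1 was called lower and 0 higher, with a median difference of -0.33. Neural ectoderm markers, 3 of 9 tested and Pax6 not detected, summed to 430 to 512 and 421 to 441. Their part in the Fgf15 difference was not tested. The call was lost with median centring (-0.61, adjusted p = 0.0567), without knockout array 1 (0.0563) and without control array 1 (0.0903).

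Dusp6 at day 9 read 8.20 and 7.95 in knockout and 8.50 and 8.59 in control bodies. The brightest probe differed by -0.47 ± 0.16 (limma adjusted p = 0.117), and the mean of both detected probes by -0.67, which passed (adjusted p = 0.0328). The second probe alone differed by -0.87 ± 0.21 (adjusted p = 0.0281 over 10241 probes). Fgf4 differences lay between -0.01 and 0.04 at the 4 days.

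The other members did not pass between the genotypes at any day. Spry2 differed by 0.34 ± 0.16 at day 3 (limma adjusted p = 0.259, unadjusted p = 0.0496) and by 0.35 ± 0.16 at day 6 (adjusted p = 0.424, unadjusted p = 0.0482), with both knockout arrays above both control arrays on each of these days. Its differences at days 0 and 9 were -0.13 and -0.24. Etv4 differences lay between -0.40 at day 3 and 0.12 at day 9, with adjusted p of at least 0.452. Those of Fgfr2 lay between -0.55 at day 6 and 0.48 at day 3, with adjusted p of at least 0.469. Without a detection filter Spry4 differed by -0.38 to 0.27, with adjusted p of at least 0.709, and Fgfr1 at the later days by -0.30 to 0.03.

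Whether the genotypes changed differently from day 0 was tested directly. In limma 0 of the 8 members passed at day 3, where 2.66% of all genes did, 0 at day 6 (1.01%) and 0 at day 9 (2.25%). At an unadjusted p under 0.05 there were 1, 1 and 2 members. The strongest was the Fgf8 change to day 6, 0.85 ± 0.22 larger in knockout bodies (adjusted p = 0.113), and the Dusp6 rise to day 3 was 0.72 ± 0.22 smaller in knockout bodies (a difference of -0.72, adjusted p = 0.114). By the second Dusp6 probe that difference was -0.15 ± 0.29 (adjusted p = 0.894), so its size rests on the brightest probe. The Fgf15 change to day 9 differed by -0.53 ± 0.22 (adjusted p = 0.328), and the Etv5 change to day 3 by 0.55 ± 0.30 (adjusted p = 0.434). Over the 3 later days the differences in change of Fgf4, Fgfr2, Spry2 and Etv4 lay between -0.51 and 0.62. Without a detection filter those of Fgfr1 and Spry4 lay between 0.14 and 0.75, and none passed.

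Other genes of the pathway, from fixed lists of 75 names, were on the array in 63 cases and tested in 32. Knockout cells had 1 higher (Egr1) and 1 lower (Dusp4) at day 0. Knockout bodies had 1 higher (Sdc4) and 3 lower (Fgf10, Flrt3 and Fos) at day 3, 0 at day 6, where 3 had an unadjusted p under 0.05, and 0 higher and 4 lower (Sdc4, Egr1, Fos and Ccnd1) at day 9. Over all genes 1.41% were higher and 0.773% lower at day 0, 3.94% and 2.85% at day 3, 1.43% and 0.32% at day 6, and 2.69% and 2.43% at day 9. The median difference of the 32 genes was between -0.05 and 0.04 at all 4 days.

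Fgf10, a ligand of the early mesoderm and limb, read 5.97 and 5.86 in knockout and 8.32 and 7.76 in control bodies at day 3, at least 2.42-fold lower in knockout (limma adjusted p = 1e-05). Its change from day 0 also differed between the genotypes (-2.29 ± 0.29, adjusted p = 0.000644). Both genotypes held it at day 6, with 7.07 and 6.88 in knockout and 7.00 and 6.88 in control bodies. Fos, an immediate early target of ERK signalling, read 6.84 and 6.67 in knockout and 8.21 and 8.13 in control bodies at day 3, a difference of -1.41 ± 0.17 (adjusted p = 6.49e-05). Flrt3, a membrane protein that binds FGF receptors, differed at day 3 by -0.72 ± 0.18 (adjusted p = 0.023), at least 1.37-fold.

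Dusp4, the nuclear relative of Dusp6, read 6.24 and 6.35 in knockout and 7.39 and 7.47 in control cells at day 0, at least 1.45-fold lower in knockout, where no array detected it (limma adjusted p = 0.00192). At day 6 it read 7.81 and 7.66 against 7.06 and 7.59. The change to day 6 differed by 1.55 ± 0.24 (adjusted p = 0.00366), a fitted value that rests on the undetected day 0 level. The 1.18 ± 0.24 for day 9 (adjusted p = 0.0155) rests on that level too. At day 9 the Dusp4 probe was detected on no array, at 5.95 and 6.32 in knockout and 6.15 and 6.03 in control bodies. The day 9 value thus mainly carries the day 0 difference. Egr1, another immediate early gene, read 11.66 and 11.58 in knockout and 10.96 and 10.83 in control cells at day 0, and 11.12 and 11.00 against 11.66 and 11.75 at day 9. It was thus higher in knockout at day 0 (0.72 ± 0.14) and lower at day 9 (-0.64 ± 0.14), with adjusted p of 0.0136 and 0.0135. Ccnd1, which encodes cyclin D1, was lower at day 9 (-0.79 ± 0.18, adjusted p = 0.0187), and the co-receptor Sdc4 differed by -0.83 ± 0.19 at day 9 (adjusted p = 0.0177). At day 3 Sdc4 was at least 1.09-fold higher in knockout bodies (adjusted p = 0.0491), with no control array detecting it. Of the 32 genes, 3 passed for a knockout minus control difference in change from day 0 to day 3, all negative (Fgf10, Fos at -1.51 ± 0.24 and Egr1 at -1.12 ± 0.20). For day 6, 1 passed with a positive difference (Dusp4), and for day 9, 1 was positive (Dusp4) and 2 were negative (Egr1 at -1.36 ± 0.20 and Ccnd1 at -1.08 ± 0.26). Over all genes, 2.66% passed for the change to day 3, 1.01% for day 6 and 2.25% for day 9.

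With time, 4 of 19 listed other ligands could be tested. Fgf5, a marker of the primed epiblast, rose at day 3 at least 3.32-fold in knockout and at least 2.28-fold in control bodies and was not detected at days 6 and 9. Fgf17 fell at least 3.37-fold in knockout and at least 4.02-fold in control bodies by day 9. Of 13 tested feedback and target genes, 6 rose and 3 fell at day 3 in knockout bodies, and 7 rose and 3 fell in control bodies, where 24.6% and 21.6% of all genes did in knockout and 27.2% and 24.4% in control bodies. Flrt3, not detected at day 0, rose at least 10.1-fold in knockout and at least 8.04-fold in control bodies by day 6. Ier3 fell at least 4.08-fold in knockout and at least 3.92-fold in control bodies at day 3. Dusp4 rose at day 3 at least 2.91-fold in knockout bodies (limma adjusted p = 1.66e-07). Its control mean also went up, from 7.43 at day 0 to 9.03 at day 3. Phlda1 was 3.19 ± 0.19 above day 0 at day 6 in knockout bodies, where its mean went from 6.75 to 9.94. In control samples the Phlda1 mean also went up, from 7.28 at day 0 to 9.73 at day 6.

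**Figure D5:**
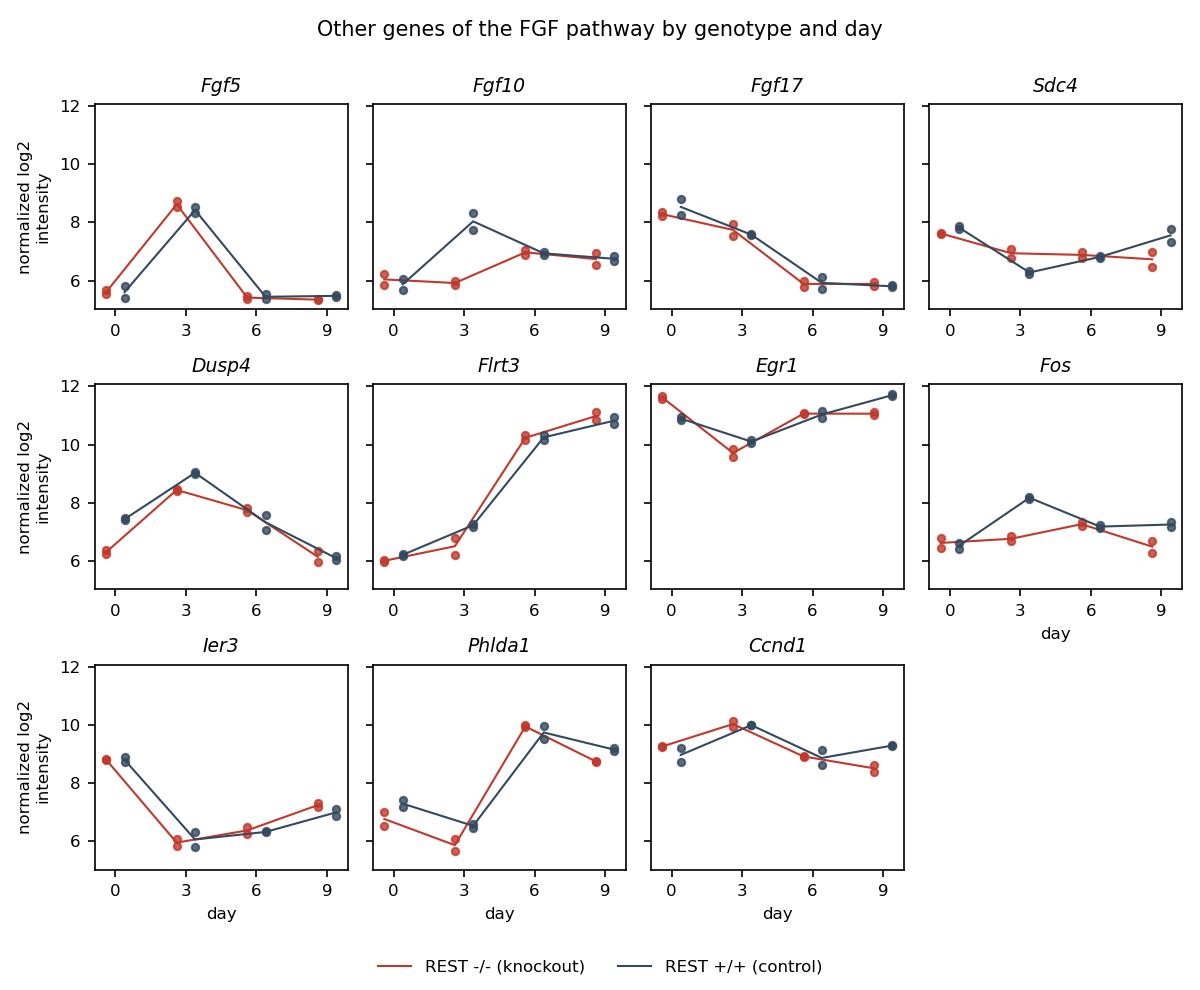
Normalized log2 intensity of 11 other genes of the FGF pathway by day, 1 point per array, knockout in red left of control in dark grey, lines joining the means of 2 arrays. Fgf10 lies at 5.86 to 5.97 in knockout and 7.76 to 8.32 in control bodies at day 3, and Flrt3 climbs to days 6 and 9 in both genotypes.

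Across the 16 arrays, which share groups and normalization, 5 of the 8 tested members shared 2 courses. Fgf8 and Dusp6 correlated with Pearson's r of 0.982, and the arrays of day 3 are the ones that stand apart in both. Spry2, Etv4 and Etv5 correlated with r of 0.898 to 0.948. The 2 courses were not fully separate, with r between them from 0.34 (Fgf8 and Etv5) to 0.64 (Spry2 and Dusp6). Fgf4 stood at -0.30 with Fgf8, 0.58 with Spry2, 0.71 with Etv4 and 0.73 with Etv5. Fgf15 stood at -0.54 with Fgf8 and -0.59 with Spry2, and Fgfr2 at -0.49 and -0.61. Among all tested genes the courses most like Fgf8 were those of Eomes, a T-box factor of the streak (r = 0.995), Vrtn (0.992) and Sp5 (0.990). Those most like Dusp6 were Vrtn (0.988), Apln, which encodes the ligand apelin (0.985), and Cnksr3 (0.983). Aire, Plekha4 and Tex14 were most like Fgf4 (0.993 to 0.994), and Dctpp1, Mettl8 and Shmt1 most like Spry2 (0.981 to 0.987). Upp1, Pla2g1b and Dnajc19 were most like Etv4 (0.981 to 0.982), and Ppp1r1a, Bcas1 and Coil most like Etv5 (0.967 to 0.977). Fgf15 and Fgfr2 had lower best values, 0.855 for Tbc1d20 and 0.833 for Foxn3.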

How the data were processed

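Total RNA from 16 samples, 2 for each genotype and day, was hybridised as biotin-labelled cRNA to Illumina mouse bead arrays. For 25697 probes, the deposited file gives a raw intensity and a detection p-value on every array, per the file headers. Between 25.5% and 28.0% of the deposited intensity values per array lay below 0, so background had been subtracted. A second table held intensities that the authors had normalized, on a linear scale by its values. Each of its columns kept its array's rank order, with medians of 26.8 to 27.1. Which software made them is not given in sources used here.

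Intensities were normalized with neqc (limma 3.58.1, R 4.3.3, statmod 1.5.0): normexp background correction from the detection p-values, offset 16, quantile normalization and log2. The filter kept 10241 probes, those with p below 0.01 in each array of some group, and the brightest probe stood for a gene. The platform annotation gave 1 symbol for 23978 probes and none for 1719. lmFit and eBayes took the 16 arrays together, 1 mean for each group, and 13 comparisons were adjusted by Benjamini-Hochberg over 7505 genes each. The "at least" bounds set the dim group at the lowest normalized signal of any detected probe, array by array, or at the probe's own value if higher. The scripts were tested on simulated data. The number of arrays limits the precision, and arrays give no counts. Same-numbered arrays did not deviate together across groups, so replicate numbers were not used to pair samples.

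The members and the gene lists were chosen with earlier results of these data known. All 10 members are named, between the genotypes and over time. Other pathway genes are named when called between the genotypes or among the 3 largest changes from day 0 in a genotype. Markers were the pluripotency, primed epiblast, primitive streak, neural ectoderm, endoderm, REST-target neuronal, and cardiac and mesenchyme lists, summed as linear normalized intensity. Alternatives changed the background correction, normalization, probe filter, table, probe choice, arrays in the fit and replicate block, and left out each array in turn. Promoter sequences come from RefSeq, GRCm38.p6.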

Additional observations from a re-analysis of the deposited data

How the results depend on the processing

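Of 361 recomputed member values that had passed the threshold, 339 still passed, 22 did not and 0 changed sign. Of 999 that had not passed, 14 did. The 361 values were mostly changes from day 0. Between the genotypes, Etv5 at day 3 passed in 6 of 12 settings, Fgf8 at day 6 in 8 of 13 and Fgf15 at day 9 in 9 of 12. The number of members called knockout against control at day 3 (1 as reported) was 2 with probes required in 2 groups, 0 in the authors' table and 0 with only the compared groups fitted. At day 6 (1 as reported) it was 0 without background correction and 0 with only the compared groups. For day 9 (1 as reported) the count was 0 with median centring and 2 with the mean of detected probes. At day 3 without background correction the 1 member was Dusp6, not Etv5. The cause was not tested. Leaving out an array gave 0 at day 0, 0 to 1 at each of days 3, 6 and 9, and 0 for each difference in change. Against day 0 it gave 3 to 4, 5 and 5 members in knockout bodies at days 3, 6 and 9, and 3 to 4, 4 to 5 and 5 to 6 in control bodies.

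With the replicate number as a block the counts between the genotypes were again 0, 1, 1 and 1 at days 0, 3, 6 and 9, and Fgfr2 was also called at day 6 in control and at day 9 in knockout bodies. Same-numbered knockout and control arrays correlated in their deviations at -0.12, 0.06, -0.18 and 0.07 on the 4 days. A crossed pairing at days 0 and 6, chosen after seeing the data, called 0 and 1 members and 155 and 131 genes. The chip as a block was not run, since the columns name no chip.

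Over all genes, fitting only the compared groups called 36, 294 and 76 between the genotypes at days 0, 3 and 6 (164, 510 and 131 as reported), and 88 and 37 for the differences in change at days 3 and 6 (200 and 76). The authors' table called 122 and 103 for the differences in change at days 3 and 9 (200 and 169). Leaving out an array gave 69 to 276, 207 to 450, 84 to 265 and 200 to 303 genes at days 0, 3, 6 and 9, and 68 to 239 and 46 to 145 for the differences in change at days 3 and 6. Median centring moved the median of all genes by up to 0.31 (control, day 6). With it the share of calls that were higher was 84.3% at day 0 and 80.9% at day 9 between the genotypes (64.6% and 52.6%), 65.7% and 66.6% at days 3 and 6 in knockout bodies (53.3% and 51.5%), 69.8% and 71.2% in control bodies (52.7% and 51.4%), and 33.3% and 65.6% for the differences in change at days 3 and 9 (48% and 53.3%). Signal near background limits Fgfr1, Spry4, Fgfr2, Etv5, and Fgf8 at day 6.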

Other observations

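The cytoplasmic relay of the pathway had 8 of 20 listed genes tested, and between the genotypes 0 passed in limma at any day, with 0, 1, 0 and 0 at an unadjusted p under 0.05 at days 0, 3, 6 and 9. With time, 4 of the 8 were higher and 3, 4 and 3 lower at days 3, 6 and 9 in knockout bodies, and 3, 4 and 4 were higher and 3 lower on each day in control bodies. Over all genes the shares lay between 24.6% and 35.4% higher and between 21.6% and 34.2% lower. Ptpn11, which encodes the phosphatase SHP2 that links receptors to RAS, was 1.62 ± 0.15 above day 0 at day 6 in knockout bodies and 1.56 ± 0.15 in control bodies. Gab1, an adaptor upstream of SHP2, fell by 1.96 ± 0.19 at day 9 in knockout bodies and the control change was -1.73 ± 0.19. Map2k1 changed by -0.66 ± 0.12 and -0.53 ± 0.12 at day 9, while Map2k2, the other kinase of the same step, was higher by 0.68 ± 0.14 and 0.65 ± 0.14, in knockout and in control bodies. The limma adjusted p of each of these values was below 0.05. Ptpn11, Gab1, Map2k1 and Map2k2 were chosen after their values were seen.

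Of the 3 tested genes of heparan sulfate synthesis, 0 differed between the genotypes in limma at any day, with 1 at an unadjusted p under 0.05, at day 9. Ext2, a polymerase of the chain, was 0.95 ± 0.21 lower at day 3 than at day 0 in knockout bodies (-0.95) and 1.22 ± 0.21 lower in control bodies (-1.22), and at day 9 it was 0.74 ± 0.21 and 0.53 ± 0.21 above day 0. Ext2 too was chosen after its values were seen. Of the 4 tested receptors and co-receptors, 1 was higher and 1 lower at day 3 in knockout and also in control bodies. At day 6 there were 2 higher and 1 lower in knockout and 0 and 2 in control bodies. At day 9 there were 3 higher and 1 lower in knockout bodies in limma. In control bodies there were 0 and 0, with 0 of the 4 at an unadjusted p under 0.05. Over all genes the shares on these days lay between 24.6% and 35.4% higher and between 21.6% and 34.2% lower. The median knockout minus control difference of these 4 was already -0.71 at day 0, where 2 had an unadjusted limma p under 0.05. Between the genotypes 0 of these 4 differed in their change from day 0, with 1 at an unadjusted p under 0.05 on each day.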
